A study of Mus musculus with 17 samples.

Results

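The cytosolic ribosomal protein genes were followed across 17 Illumina arrays of mouse liver RNA. They were picked by gene symbol: every Rpl or Rps followed by a number, together with Rplp0, Rplp1, Rplp2 and Rpsa, leaving out the S6 kinases, pseudogenes and mitochondrial ribosomal proteins. That gave 66 genes with 84 probes, where 15 genes had more than 1 probe, of which the brightest on average was kept. Of the 66 genes, 60 passed the filter on dim probes and were tested among 12863 genes. Of these 12863, 11792 have a symbol, and the rest are probes without one, each counted as a gene. The other 6, Rpl14, Rpl17, Rpl39l, Rpl6, Rplp2 and Rps23, were not above background on at least 3 arrays, and nothing is said of their levels. Of the 60, 31 encode proteins of the large subunit and 22 proteins of the small subunit. A further 5 are paralogues (Rpl3l, Rpl7l1, Rpl22l1, Rpl36al and Rps27l). The symbol also takes in Rps19bp1, which encodes a protein that binds Rps19 and is not itself a ribosomal protein, and Rps23rg1, a retrogene copied from Rps23.

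The arrays fell into 4 groups. FSP1 ablated livers (4 arrays) had CCl4 treatment and the label FSP1 + for tk. aSMA ablated livers (3 arrays) had CCl4 treatment and the label aSMA + for tk. CCl4 livers (6 arrays) had CCl4-induced fibrosis and tk Neg, and healthy livers (4 arrays) had no treatment and tk No. CCl4, carbon tetrachloride, is toxic to hepatocytes, and repeated doses lead to liver fibrosis. FSP1 is the protein of S100a4 and aSMA that of Acta2, both used as markers of fibroblast-like cells, and FSP1 is also found in some macrophages. CCl4 treatment was shared by both ablated groups and their CCl4 comparators. The labels give no strain, sex, age, dose or time. They also do not say whether each array is a separate animal, so p-values measure the spread between these arrays, which may be technical.

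The cytosolic ribosome is built from one set of proteins for the small subunit and another for the large subunit, assembled on ribosomal RNA in the nucleolus. Messenger RNAs of ribosomal proteins begin with a run of pyrimidines, the terminal oligopyrimidine (TOP) motif, through which mTOR and Larp1 set their translation and stability. Ribosomal proteins that are not built into ribosomes can signal too: Rpl5 and Rpl11, bound to 5S ribosomal RNA, hold back Mdm2 and so raise p53. In liver, ribosome production goes up when hepatocytes grow and divide after injury.

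The probe for Acta2 ranged from 7.07 to 7.84 in FSP1 ablated livers, from 7.47 to 9.34 in aSMA ablated livers, from 9.18 to 11.35 in CCl4 livers and from 6.98 to 8.62 in healthy livers (log2 intensity). The probe for S100a4 was dim, at 6.09 to 6.4 on all 17 arrays, and its FSP1 ablated and CCl4 values overlapped, so it gives no check of that label. All 8 hepatocyte markers were measured, though 1 was above background on no FSP1 ablated array. Their log2 mean intensity was 13.05 to 13.34 over the 17 arrays, a mean of unlogged values that rests mostly on the bright markers. Before normalization the upper quartile of deposited intensity was 165 to 168 in FSP1 ablated, 169 to 179 in aSMA ablated and 168 to 177 in CCl4 livers, against 63.7 to 65.7 in healthy livers. Comparisons of the members and the related lists with healthy liver were therefore also made under other scalings. Those of the cell markers were made under quantile normalization alone. Y-linked signal was absent on all ablated arrays and on CCl4 arrays 1 to 3, whose Xist values lay above those of the healthy arrays. Y-linked signal was found on CCl4 arrays 5 and 6 and on all healthy arrays, but not on CCl4 array 4. CCl4 arrays 1 to 3, like the FSP1 ablated and healthy arrays, read 6.29 to 6.75 for the Alb probe, while CCl4 arrays 4 to 6 and the aSMA ablated arrays read 8.66 to 9.33. The lower readings lay near those of untested members such as Rps23 (group means 5.86 to 5.90). The Alb probe is therefore used only to divide the arrays and not as a measure of albumin. CCl4 arrays 1 to 3 and 4 to 6 are therefore also given apart below.

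Most cytosolic ribosomal protein genes were higher in CCl4 livers than in healthy livers. In a limma fit with Benjamini-Hochberg adjustment over all 12863 genes and a threshold of 0.05, 36 of the 60 rose and 4 fell, where 16.9% of all genes rose and 17.3% fell. Their median log2 difference was 0.50, against -0.02 for all genes. On 29 of the 60, all 6 CCl4 arrays lay above all 4 healthy arrays, a separation that 11.4% of all genes showed (1460 genes), and on 0 of the 60 did all CCl4 arrays lie below. By subunit, 23 large-subunit genes rose and 1 fell (of 31, median 0.53), and 12 small-subunit genes rose and 0 fell (of 22, median 0.54), a difference between subunits that was not tested. Among the 5 paralogues 1 rose and 1 fell. Of the 4 genes that fell, Rps23rg1 passed the filter only through the healthy arrays.

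Taken array by array, the members' median distance from the healthy mean was 0.53, 0.66, 0.15 and 0.51 on the FSP1 ablated arrays and 0.18, 0.37 and 0.17 on the aSMA ablated arrays. It was 0.55, 0.68, 0.58, 0.31, 0.38 and 0.39 on the CCl4 arrays, against -0.05, -0.02, 0.05 and 0.00 on the healthy arrays. Every CCl4-treated array therefore lay above every healthy array. FSP1 ablated array 3 stood below the other 3 of its group. CCl4 arrays 1 to 3 lay above CCl4 arrays 4 to 6, and the difference from healthy liver was larger in arrays 1 to 3 for 48 of 60 members. With each set of 3 arrays alone, 43 members rose in CCl4 arrays 1 to 3 and 28 in CCl4 arrays 4 to 6, and 28 did so in both. CCl4 arrays 5 and 6, which carry Y-linked signal like the healthy arrays, had medians of 0.38 and 0.39. With Y-linked signal as a block, 24 members rose and 1 fell. For these subset and block fits the share of all genes is not given, so the counts are not read as particular to the members.

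**Figure D1:**
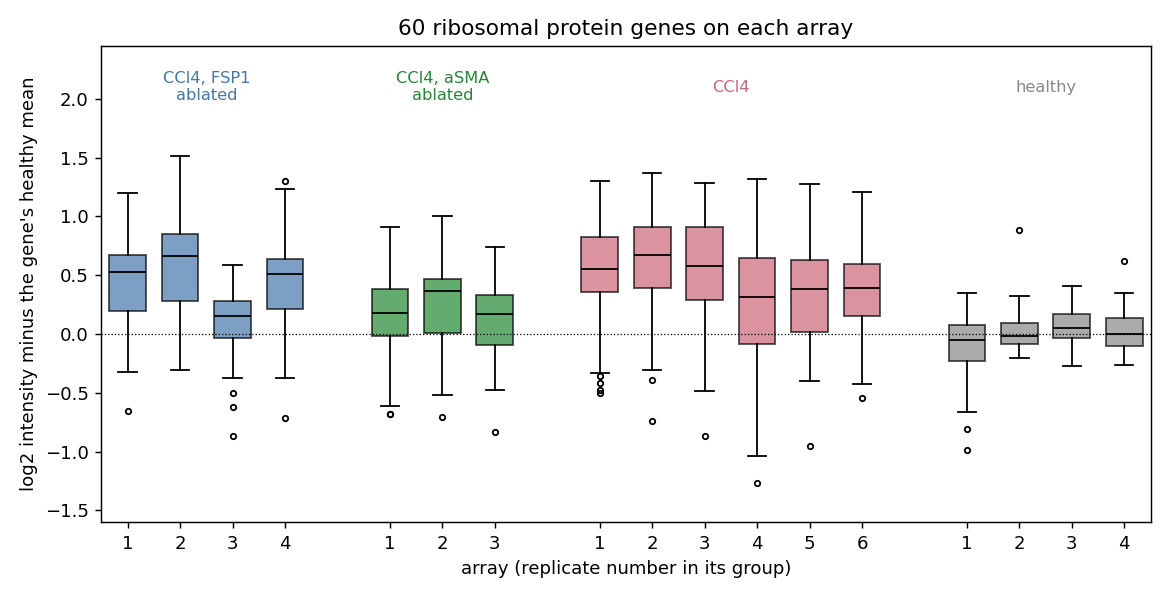
Log2 intensity of the 60 tested ribosomal protein genes on each of the 17 arrays, minus each gene's mean over the 4 healthy arrays (boxes: quartiles and median, whiskers: 1.5 times the box, points: genes beyond). The medians of all 13 CCl4-treated arrays lie above 0, with FSP1 ablated array 3 at 0.15 against 0.51 to 0.66 for the others of its group.

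The scale of the healthy arrays bears on the size and, for a few genes, the sign of these differences. On the deposited scale the median of all genes itself shifted by 0.58 and that of the members by 1.30. With each array centred on its median these were 0.31 and 1.02. Relative to the median of all genes the members thus stood at 0.52 under quantile normalization and at 0.72 under either of the other scalings, and 53, 52 and 52 of the 60 lay above that median under quantile normalization, the deposited scale and centring.

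Rps12, a small-subunit protein gene, had the largest rise. It read 14.39, 14.46 and 14.53 (lowest, median and highest log2 intensity of 6 arrays) in CCl4 livers, against 13.27, 13.21, 13.30 and 13.06 in healthy livers. The groups were far apart and the 6 CCl4 arrays lay within a narrow band. It averaged 14.46 ± 0.06 in CCl4 livers and 13.21 ± 0.11 in healthy livers (SD, n = 6 and 4), a log2 difference of 1.25 ± 0.11 (SE, adjusted p = 1.39e-06) or 2.38-fold.

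Rpl36a, a large-subunit protein gene on the X chromosome, read 12.22, 12.57 and 12.74 (lowest, median, highest) in CCl4 livers, against 11.71, 11.27, 11.35 and 11.42 in healthy livers. Its log2 difference was 1.08 ± 0.14 (SE, adjusted p = 4.64e-05). Rpl31, whose protein lies near the exit of the tunnel for the growing peptide, read 13.30, 13.35 and 13.56 in CCl4 livers, against 12.61, 12.27, 12.15 and 12.21 in healthy livers, and differed by 1.07 ± 0.12 (adjusted p = 1.04e-05). For both genes healthy array 1 was the highest of its group and still below every CCl4 array. A second probe of Rpl31 gave 1.39.

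Rpl23a, which sits at the tunnel exit where the signal recognition particle docks, read 12.22, 12.61 and 12.74 (lowest, median, highest) in CCl4 livers, against 11.59, 11.44, 11.58 and 11.53 in healthy livers, a difference of 0.98 ± 0.15 (SE, adjusted p = 0.000147). Rps24, a small-subunit protein gene mutated in some families with Diamond-Blackfan anaemia in humans, read 13.35, 13.71 and 14.01 in CCl4 livers, against 12.94, 12.72, 12.45 and 12.66 in healthy livers, a difference of 0.98 ± 0.14 (adjusted p = 0.000107). Neither gene's groups overlapped. A dimmer second probe of Rps24 gave 0.40. The 5 genes Rps12, Rpl36a, Rpl31, Rpl23a and Rps24 kept their calls in all 31 alternative fits.

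The stalk of the large subunit, which recruits elongation factors, is formed by Rplp0, Rplp1 and Rplp2. Rplp1 read 14.69, 14.75 and 14.88 (lowest, median, highest) in CCl4 livers, against 14.18, 14.14, 14.33 and 14.20 in healthy livers, and rose by 0.56 ± 0.08 (SE, adjusted p = 0.000102). Rplp0 rose by 0.39 ± 0.13 (adjusted p = 0.0303) with overlapping groups, and Rpl12, at the base of the stalk, by 0.90 ± 0.23 (adjusted p = 0.00696). All 3 measured genes of this structure were higher. Rpl5, the 5S RNA partner that binds Mdm2, rose by 0.51 ± 0.11 (adjusted p = 0.00203), and Rpl23, which can also bind Mdm2, by 0.58 ± 0.09 (adjusted p = 0.00015). Rps6, the substrate of S6 kinase, had all CCl4 arrays above all healthy arrays, with a difference of 0.53 ± 0.20 that did not pass (adjusted p = 0.0566).

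Rps19, the gene most often found mutated in Diamond-Blackfan anaemia in humans, rose by 0.76 ± 0.12 (SE, adjusted p = 0.000223) on the brighter of its probes. A second, dimmer Rps19 probe gave -0.70, so the probes disagree. Where other genes had a second probe above background on all arrays, it went the same way as the one used, as with Rps3 (0.43 beside 0.49), Rps9 (0.46 beside 0.52) and Rpl38 (0.40 beside 0.67). Further Rpl23 probes above background on all arrays gave 0.54 and 0.11. Rps14 (0.14, adjusted p = 0.427) and Rpsa, the small-subunit protein also known as a laminin receptor (-0.22, adjusted p = 0.0564), did not pass. Ribosomal protein genes have many near-identical processed pseudogenes, and whether a probe also picks up such copies was not tested.

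**Figure D2:**
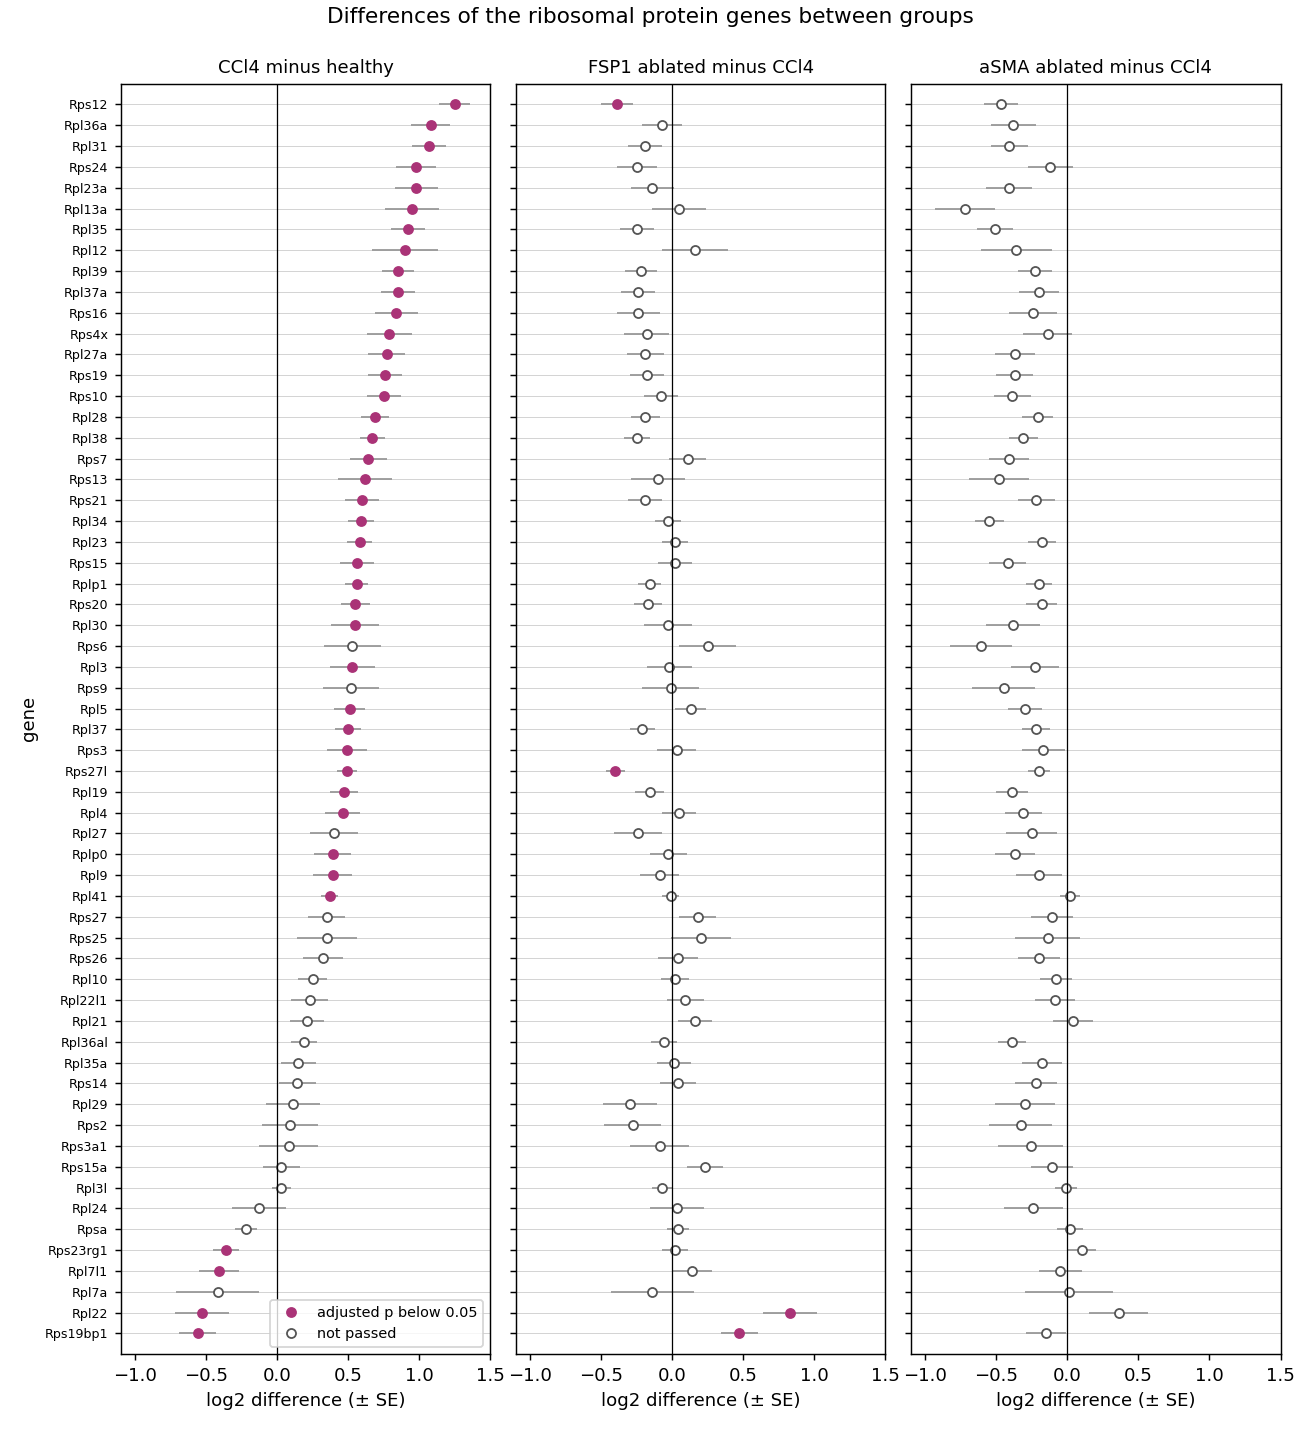
Log2 differences (± SE) of the 60 tested ribosomal protein genes for CCl4 minus healthy, FSP1 ablated minus CCl4 and aSMA ablated minus CCl4 livers, ordered by the first. Filled points passed an adjusted p of 0.05: 40 in the first panel, 4 in the second and 0 in the third, where 54 of 60 points lie below 0.

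The genes that fell under quantile normalization were Rps19bp1, Rpl22, Rpl7l1 and Rps23rg1, and the first 3 of these changed sign under other scalings. Rps19bp1, whose protein is also known as a regulator of Sirt1, read 6.68, 7.12 and 7.40 (lowest, median, highest) in CCl4 livers, against 7.40, 7.62, 7.65 and 7.86 in healthy livers. Its difference was -0.56 ± 0.13 (SE, adjusted p = 0.00329), but 0.38 on the deposited scale and 0.10 with centred arrays. Rpl22, an RNA-binding large-subunit protein without which mice live, read 8.75, 9.12 and 9.47 in CCl4 livers, against 9.37, 9.65, 9.69 and 9.75 in healthy livers. Its difference was -0.53 ± 0.19 (adjusted p = 0.0457), 0.56 on the deposited scale and 0.28 with centred arrays. The Rpl22 call was lost in 13 of 17 fits that left out 1 array (adjusted p up to 0.115).

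Rpl7l1, a paralogue of Rpl7, differed by -0.41 ± 0.14 (SE, adjusted p = 0.0297) under quantile normalization, by 0.67 on the deposited scale and by 0.39 with centred arrays. Its call was lost in 3 of the 17 fits, those without healthy array 2, 3 or 4 (adjusted p = 0.0874, 0.0549 and 0.0779). Rps23rg1 was not well above background on any CCl4 array and was at least 1.18-fold lower there than in healthy livers (adjusted p = 0.00706), a call lost on the deposited scale (-0.05). It was above background on 3 healthy and 2 aSMA ablated arrays, so it passed the filter only through the healthy arrays. Such a filter favours a fall from healthy liver, and no conclusion is drawn from this call. Set against the median of all genes on the deposited scale, Rpl22 stood at -0.02 and Rpl7l1 at 0.08, near that median, where the members' median stood at 0.72 above it. Rpl22l1, which Rpl22 is known to hold down in mouse cells, differed by 0.23 ± 0.13 (adjusted p = 0.173) and did not pass.

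Rps27l, a paralogue of Rps27 that p53 induces, was the paralogue that rose. It read 13.47, 13.66 and 13.85 (lowest, median, highest) in CCl4 livers, against 13.23, 13.17, 13.11 and 13.16 in healthy livers, a difference of 0.49 ± 0.07 (SE, adjusted p = 0.000118) with no overlap. Rps27 itself differed by 0.35 ± 0.13 and did not pass (adjusted p = 0.0581). Of 10 measured p53 pathway genes 5 rose and 0 fell in CCl4 livers (median 0.61), among them Cdkn1a, the p21 cell cycle inhibitor, by 2.96 ± 0.44, Phlda3, a p53-induced inhibitor of Akt, by 1.96 ± 0.14, Ccng1 by 0.69 ± 0.10 and Mdm2 by 0.54 ± 0.15. Rpl36al, the paralogue of Rpl36a, did not pass at 0.19 ± 0.09 (adjusted p = 0.132), nor did Rpl3l, a muscle form that was dim here, at 0.03 ± 0.07 (adjusted p = 0.739).

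**Figure D3:**
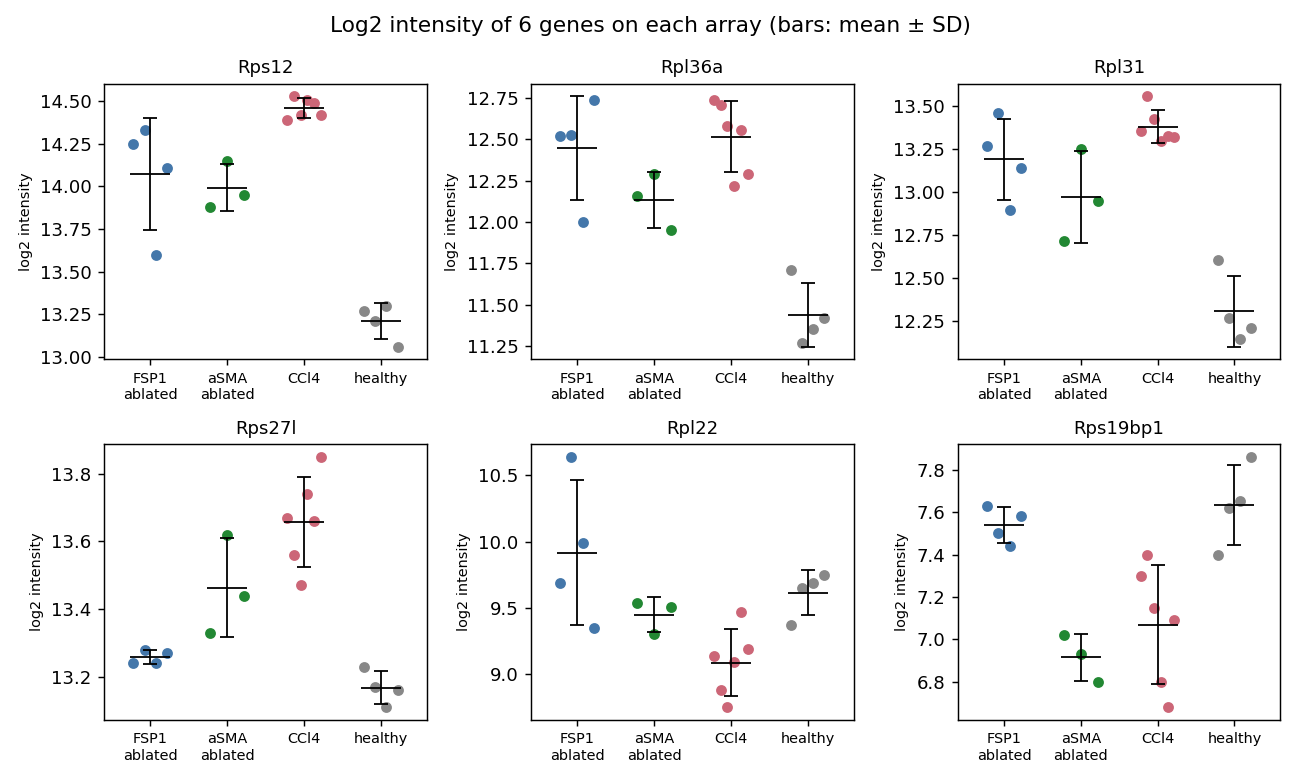
Log2 intensity of Rps12, Rpl36a, Rpl31, Rps27l, Rpl22 and Rps19bp1 on each array (points) with the mean and SD of each group (bars), quantile normalized. Rps12, Rpl36a, Rpl31 and Rps27l lie higher on all CCl4 arrays than on all healthy arrays, and Rps27l on the 4 FSP1 ablated arrays (13.24 to 13.28) lies below every CCl4 array. The axes are not on 1 common range and do not start at 0.

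Markers of other cells moved with the same contrast under quantile normalization, the only scaling in which they were compared. All 7 measured markers of dividing cells rose, their log2 mean intensity lying at 9.08 to 10.78 in CCl4 livers and at 6.34 to 6.76 in healthy livers, where 1 of them was at background. Of 8 macrophage markers 6 rose (9.62 to 10.34 against 7.99 to 8.49), and of 10 mesenchymal markers 8 rose (10.29 to 10.75 against 8.90 to 9.58). Lymphocyte markers lay at 6.48 to 6.90 in CCl4 livers against 6.19 to 6.33 in healthy livers, with 1 of 8 risen, and 2 of 3 erythroid markers fell (10.28 to 11.49 against 12.09 to 12.45). Of 8 hepatocyte markers 3 fell (13.05 to 13.27 against 13.24 to 13.34). Their part in the rise of the ribosomal protein genes was not tested. In bulk tissue, more cells of a type and more of a transcript per cell cannot be told apart.

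Other genes of translation were looked at in lists. Of 20 other TOP genes 7 rose and 0 fell in CCl4 livers under quantile normalization (median 0.17), and 17 rose and 0 fell on the deposited scale (median 0.98). Among the 7 were Eef1b2 (0.82 ± 0.12) and Eef1d (0.46 ± 0.11), both subunits of the elongation factor that recharges eEF1A, Nap1l1, a histone chaperone (0.99 ± 0.23), and Vim, also a mesenchymal gene (1.57 ± 0.26). Of 37 initiation, elongation and tRNA synthetase genes 7 rose and 4 fell (median 0.16), but 34 rose and 0 fell on the deposited scale, with the valine synthetase Vars at 1.05 ± 0.09 and Lars, that for leucine, at 0.48 ± 0.13 under quantile normalization. Fau, which encodes small-subunit protein eS30 fused to a ubiquitin-like protein, did not pass under quantile normalization (0.22 ± 0.10, adjusted p = 0.083). It passed as higher on the deposited (1.03) and centred (0.75) scales, where the median of all genes itself shifted by 0.58 and 0.31. The share of all genes called on the deposited scale is not given. The counts of these and the following lists on that scale are therefore not read as particular to the lists.

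Of 38 ribosome assembly factors 1 rose and 8 fell under quantile normalization (median -0.15), whereas on the deposited scale 35 rose and 0 fell (median 0.77). Sbds, needed for the final maturation of the large subunit, differed by -0.58 under quantile normalization and by 0.43 on the deposited scale, and Nop14, of the small-subunit processome, by -0.70 and 0.32. RNA polymerase I and III genes gave 2 higher and 5 lower of 23 (median -0.10), but 22 higher and 0 lower on the deposited scale (median 0.83). These directions rest on the scaling. Of 20 mTOR, S6 kinase and TOP regulators 1 rose and 2 fell under quantile normalization (median -0.01), against 16 and 0 on the deposited scale (median 0.66). Sesn1, an mTOR inhibitor induced by p53, rose by 0.60 ± 0.16 under quantile normalization, and Myc, a driver of ribosome production, differed by 0.01 under it (adjusted p = 0.932).

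Mitochondrial ribosomal protein genes, 73 of which were tested, showed 6 higher and 22 lower in CCl4 livers under quantile normalization (median -0.15) but 66 higher and 0 lower on the deposited scale (median 0.84). A difference between 2 gene lists within an array is not moved by a shift that all genes of that array share, though it does move with other steps of the normalization. On the deposited scale it also moves with array intensity where 1 list is brighter than the other, and the lists were not matched for brightness. The cytosolic members' median distance from the healthy mean, less that of the mitochondrial genes, was 0.83, 0.97, 0.33 and 0.72 on the FSP1 ablated arrays and 0.44, 0.71 and 0.44 on the aSMA ablated arrays. It was 0.65, 0.78, 0.70, 0.64, 0.49 and 0.46 on the CCl4 arrays, against 0.08, -0.03, -0.03 and -0.04 on the healthy arrays. On the deposited scale the same quantity was 0.77, 0.79, 0.31 and 0.75 on FSP1 ablated, 0.37, 0.58 and 0.43 on aSMA ablated and 0.36 to 0.53 on CCl4 arrays, against -0.03 to 0.00 on healthy arrays. Cytosolic and mitochondrial ribosomal protein genes thus changed unequally on all 13 CCl4-treated arrays under both scalings, which is given as a description with no test.

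**Figure D4:**
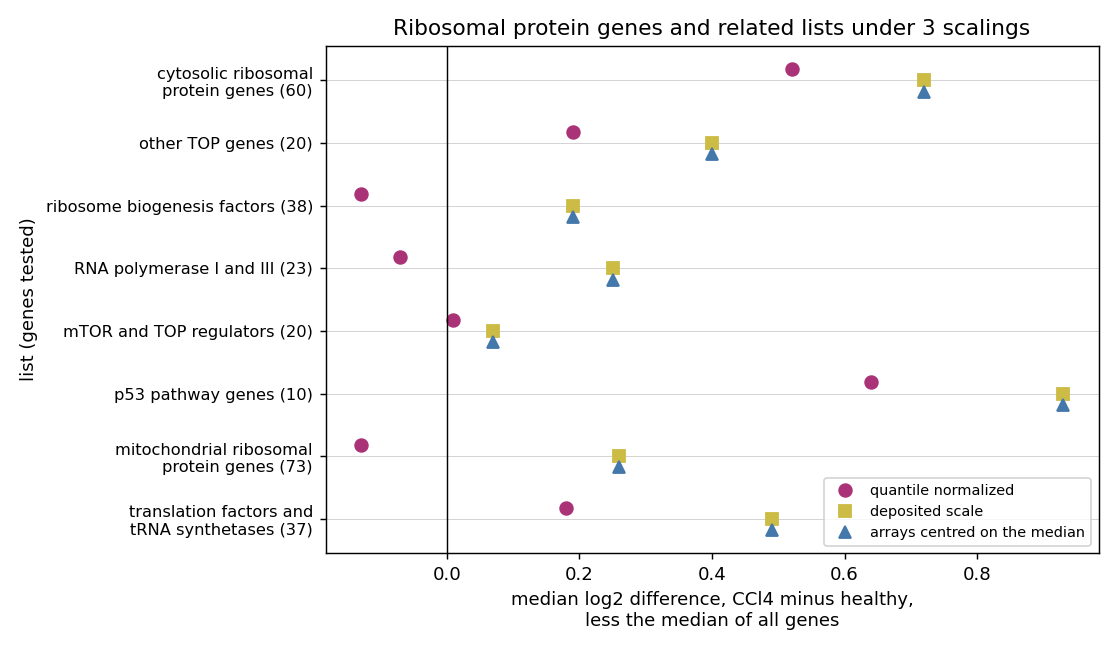
Median log2 difference (CCl4 minus healthy) of the 60 cytosolic ribosomal protein genes and of 7 related lists, less the median of all genes, under 3 scalings. The values for the deposited scale and for centred arrays are the same by construction, and on both a bright list shifts more with array intensity than a dim one. The cytosolic genes lie at 0.52 to 0.72 and the mitochondrial ones at -0.13 to 0.26, and lists that lie on either side of 0 have no direction that holds under every scaling.

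Over all 17 arrays 47 of the 60 members correlated with the members' median at r above 0.5 (median r 0.83), a description in which members share the arrays, the normalization and the group differences. That median is built from the same members, which by itself raises r, so r is no test of whether they moved together. The members below 0 were the 4 genes that fell, with Rps23rg1 at -0.64, Rpl7l1 at -0.28, Rpl22 at -0.27 and Rps19bp1 at -0.20, and Rpsa (-0.56), Rpl3l (-0.13) and Rpl7a (-0.08). The non-members whose profile was most like the members' median were Psat1, of serine synthesis (r = 0.95), Meox1, a homeobox gene (0.94), Eef1b2 (0.94), Cd9, a tetraspanin (0.93), and Nap1l1 (0.92).

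The letters at the members' start sites are shown as a description. RefSeq promoter entries (GRCm38.p6) were found for 57 of the 66 members, 49 of them subunit protein genes, and were set against all 27025 genes of that table. The lines below give 40 bases before to 20 after the start, with capitals for a C/T run of at least 5 that covers the start or begins within 5 bases of it. The first 3 are genes with such a run, and the next 4 are Rps12 and Rpl36a, with the largest rises, and Rpl22 and Rps19bp1, which went the other way under quantile normalization.
Rps24 (chr14:24490638-24490697, plus strand): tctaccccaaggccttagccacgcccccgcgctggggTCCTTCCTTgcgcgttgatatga
Rpl31 (chr1:39367811-39367870, plus strand): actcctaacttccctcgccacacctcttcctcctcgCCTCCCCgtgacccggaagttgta
Rps6 (chr4:86857348-86857407, minus strand): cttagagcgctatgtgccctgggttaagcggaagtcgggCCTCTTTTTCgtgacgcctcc
Rps12 (chr10:23787190-23787249, minus strand): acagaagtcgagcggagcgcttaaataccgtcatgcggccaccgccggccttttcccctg
Rpl36a (chrX:134585614-134585673, plus strand): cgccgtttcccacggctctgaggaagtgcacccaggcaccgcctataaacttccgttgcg
Rpl22 (chr4:152325686-152325745, plus strand): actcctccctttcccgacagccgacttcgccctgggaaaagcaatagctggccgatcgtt
Rps19bp1 (chr15:80264287-80264346, minus strand): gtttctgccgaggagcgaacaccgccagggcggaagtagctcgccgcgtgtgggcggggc

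In Rps24, Rpl31 and Rps6 the run spans the start itself. In Rps12 no such run is at the annotated start, though one lies 11 bases long within 50 bases of it. In the same window the longest run was 13 bases in Rpl36a, 14 in Rpl22 and 5 in Rps19bp1. Of the 49 subunit protein genes 24 (49.0%) had a run of at least 5 at the start, against 27.0% of all genes, and 17 (34.7%) a run of at least 8, against 7.43%. In the wider window of 50 bases before to 50 after, a run of at least 10 was found in 35 (71.4%), against 20.6% of all genes. The word CCGGAAG, the core bound by ETS factors, was present on either strand from 250 before to 50 after the start in 20 of 49 (40.8%), against 9.93%, and it stands within 20 bases after the start in Rpl31. CCATCTTG, a shortened YY1 core, was found in 6.12% against 2.42%, CGCCATCT, which overlaps it in part, in 6.12% against 2.27%, and TATAAA in 10.2% against 15.7%. These matches describe letters in a window and show no binding.

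**Figure D5:**
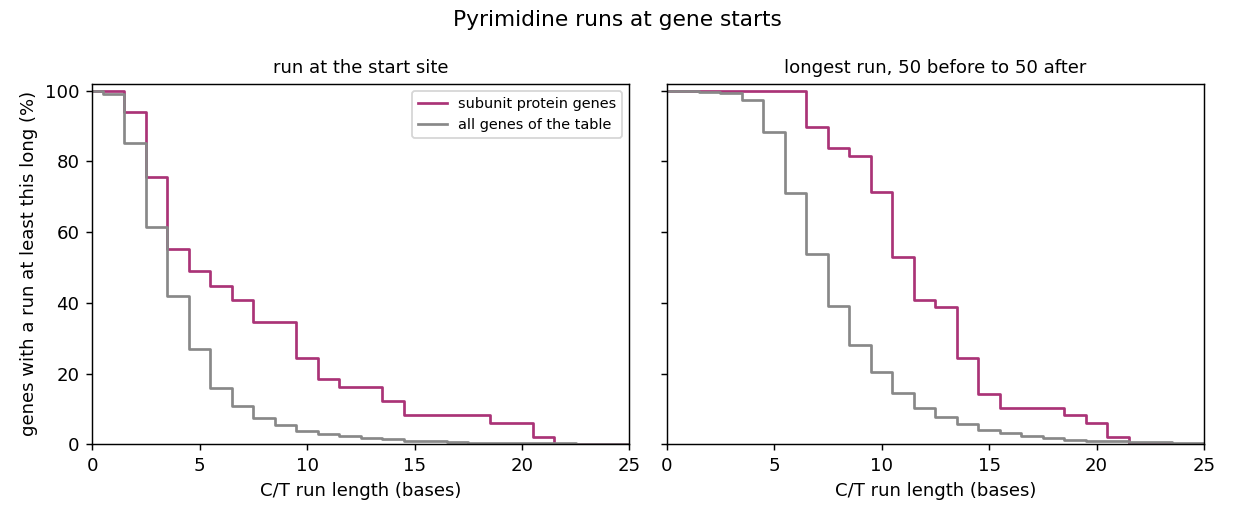
Share of genes (%) whose C/T run is at least as long as the value on the x axis (bases), for the 49 subunit protein genes with a promoter entry and for all 27025 genes. The left panel takes the run at the start site, where 34.7% of subunit protein genes and 7.43% of all genes reach 8 bases, and the right panel the longest run within 50 bases on either side, where 71.4% and 20.6% reach 10.

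Between FSP1 ablated and CCl4 livers, few ribosomal protein genes passed, a share near that of all genes. Of the 60, 2 rose and 2 fell (3.33% each), where 5.52% of all genes rose and 7.47% fell. With so few calls these counts are not read as a result about the members. The members' median was -0.05, and 0.05 and 0.07 on the deposited and centred scales, so it had no sign that held. Of the 4 calls, those for Rpl22 and Rps19bp1 were rises and those for Rps27l and Rps12 falls. Without FSP1 ablated array 4 there were 2 calls. On the deposited and centred scales 3 and 5 members rose and 0 fell, with the share of all genes not given.

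Rps27l read 13.24, 13.28, 13.24 and 13.27 in FSP1 ablated livers, against 13.47, 13.66 and 13.85 (lowest, median, highest) in CCl4 livers. The FSP1 ablated arrays lay close together, below every CCl4 array and near the healthy values. The difference was -0.40 ± 0.07 (SE, adjusted p = 0.00179), the smallest p of the 60, and it was -0.20 and -0.18 on the deposited and centred scales, where it did not pass (adjusted p = 0.263 and 0.243). The p53 targets Ccng1 (-0.66 ± 0.10, adjusted p = 0.000668) and Phlda3 (-0.79 ± 0.14, adjusted p = 0.00128) fell in the same comparison. Of the 10 p53 pathway genes these 2 fell and 1, Sesn2, also an mTOR inhibitor (0.52 ± 0.15), rose. Cdkn1a (-0.34 ± 0.44, adjusted p = 0.683) and Mdm2 (-0.14 ± 0.15, adjusted p = 0.612) did not pass. Whether p53 has a part in the Rps27l difference was not tested.

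Rpl22 read 9.69, 10.64, 9.99 and 9.35 in FSP1 ablated livers, against 8.75, 9.12 and 9.47 (lowest, median, highest) in CCl4 livers. Array 4 of the FSP1 ablated group overlapped with the CCl4 range and array 2 stood highest. The difference was 0.83 ± 0.19 (SE, adjusted p = 0.00947), and 0.84 and 0.85 on the deposited and centred scales. It was 0.59 without FSP1 ablated array 2 and still passed (adjusted p = 0.0282 or below in all 17 fits that left out 1 array). Against CCl4 arrays 4 to 6 alone it did not pass (0.66, adjusted p = 0.0508).

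Rps19bp1 read 7.63, 7.50, 7.44 and 7.58 in FSP1 ablated livers, against 6.68, 7.12 and 7.40 (lowest, median, highest) in CCl4 livers, with no overlap. Its difference of 0.47 ± 0.13 (SE, adjusted p = 0.0231) no longer passed without FSP1 ablated array 1, 2 or 4 (adjusted p = 0.0664, 0.0508 and 0.0579), nor against CCl4 arrays 1 to 3 alone (0.26, adjusted p = 0.173). Rps12 read 14.25, 14.33, 13.60 and 14.11 in FSP1 ablated livers, all below the lowest CCl4 array at 14.39. Its difference was -0.39 ± 0.11 (adjusted p = 0.0312). Array 3 was far below the others, and without it the difference was -0.23 (adjusted p = 0.0693). The Rps12 call was also lost without FSP1 ablated array 4 or CCl4 array 2 or 5 (adjusted p = 0.0579, 0.0591 and 0.0544), and its difference was -0.07 on the deposited scale (adjusted p = 0.718).

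Around these genes, 6 of 38 assembly factors rose and 0 fell with FSP1 ablation (median 0.19), among them Sbds (0.44 ± 0.10), nucleolin, Ncl (0.36 ± 0.10), and Ddx21, a nucleolar helicase (0.58 ± 0.16), and on the deposited scale 5 rose and 0 fell. Of 20 mTOR and TOP regulators 4 rose and 0 fell, including the translation repressor Eif4ebp1 (0.71 ± 0.20), the mTOR inhibitor Deptor (0.79 ± 0.20) and the Myc partner Max (0.64 ± 0.15). Mitochondrial ribosomal protein genes gave 2 higher and 5 lower of 73. All 7 dividing-cell markers fell, at 6.42 to 7.69 in FSP1 ablated livers and 9.08 to 10.78 in CCl4 livers, and 4 of 10 mesenchymal markers fell (9.99 to 10.41 against 10.29 to 10.75). Beside these falls, the members' median difference from healthy livers was 0.46 in FSP1 ablated livers and 0.50 in CCl4 livers. The part of these markers in the 4 calls was not tested.

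With aSMA ablation 0 of the 60 members passed the test, where 0.00777% of all genes, 1 gene, did. The members nevertheless lay mostly on one side: 54 of 60 had a negative difference from CCl4 livers, with a median of -0.23 against 0.00 for all genes. At an unadjusted p below 0.05 there were 23 members (38.3%), against 1435 genes (11.2%) in all. In 9 members all 3 aSMA ablated arrays lay below all 6 CCl4 arrays, which 2.52% of all genes showed (324 genes). The median was -0.06 and -0.04 on the deposited and centred scales, so its size rests on the normalization.

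The 5 members with the smallest p were Rpl34, Rpl35, Rps12, Rpl36al and Rpl19. Rpl34, a large-subunit protein gene, read 12.13, 12.07 and 12.06 in aSMA ablated livers, against 12.45, 12.63 and 12.81 (lowest, median, highest) in CCl4 livers. The aSMA ablated arrays were close together, below every CCl4 array and near the healthy ones (12.05, 11.97, 12.21 and 11.97). The difference was -0.55 ± 0.10 (SE, adjusted p = 0.0701), and adjusted p = 0.0102 without CCl4 array 4. Rpl35, at the peptide tunnel exit, read 12.81, 13.21 and 12.99 in aSMA ablated livers, against 13.29, 13.51 and 13.70 in CCl4 livers (difference -0.51 ± 0.13, adjusted p = 0.157).

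Rps12 read 13.88, 14.15 and 13.95 in aSMA ablated livers, below every CCl4 array (difference -0.47 ± 0.12, SE, adjusted p = 0.164). Rpl36al, at 13.11, 13.24 and 13.06 in aSMA ablated livers, overlapped with the lowest CCl4 array at 13.22 (difference -0.39 ± 0.10, adjusted p = 0.164), and passed without CCl4 array 4 (-0.46, adjusted p = 0.0212). Rpl19 read 10.80, 10.72 and 10.77 in aSMA ablated livers, against 10.94, 11.19 and 11.26 (lowest, median, highest) in CCl4 livers (difference -0.39 ± 0.11, adjusted p = 0.168). Without CCl4 array 4, 3 members passed, all lower. Against CCl4 arrays 1 to 3 alone, 17 members passed, all lower, with a median of -0.37. Against CCl4 arrays 4 to 6 alone, which match the aSMA ablated arrays in their Alb signal, 0 passed and the median was -0.13. No share of all genes is given for these smaller fits, so the counts are not read as particular to the members. In the limma fit no gene of the related lists passed. Dividing-cell markers lay at 8.34 to 9.12 in aSMA ablated livers and at 9.08 to 10.78 in CCl4 livers, with 0 of 7 passing, and their part was not tested.

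Set directly against each other, FSP1 ablated livers were higher than aSMA ablated livers in 2 members (3.33%) and lower in 0, where 1.90% of all genes were higher and 2.62% lower (median of the members 0.20). With so few calls, near the share of all genes, these counts are not read as a result about the members. Rpl34 read 12.65, 12.77, 12.34 and 12.66 in FSP1 ablated livers, against 12.13, 12.07 and 12.06 in aSMA ablated livers, a difference of 0.52 ± 0.11 (SE, adjusted p = 0.0155). Rps19bp1 read 7.63, 7.50, 7.44 and 7.58 in FSP1 ablated livers, against 7.02, 6.93 and 6.80 in aSMA ablated livers, a difference of 0.62 ± 0.15 (adjusted p = 0.0305). In both genes all FSP1 ablated arrays were above all aSMA ablated arrays.

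Rps6 (0.87 ± 0.24, adjusted p = 0.0536), Rpl13a, a large-subunit protein with a role in translational silencing in human cells (0.77 ± 0.22, adjusted p = 0.0603), and Rpl5 (0.42 ± 0.13, adjusted p = 0.0684) had the next smallest p and did not pass. The Rps6 arrays read 12.73, 13.13, 12.21 and 12.53 in FSP1 ablated livers, against 11.45, 12.17 and 11.73 in aSMA ablated livers, and those of Rpl13a read 10.48, 10.60, 9.66 and 10.55 against 9.59, 9.43 and 9.63. Array 3 was the lowest FSP1 ablated array for both and still above the aSMA ablated arrays. Without FSP1 ablated array 3, 9 members were higher, these 3 among them, and without CCl4 array 4 there were 4. There was 1 without FSP1 ablated array 1 or 4 or aSMA ablated array 1, and 0 without FSP1 ablated array 2 or aSMA ablated array 2 or 3. These counts are not set against the share of all genes in the same fits. The Rpl34 call was lost without FSP1 ablated array 2 (adjusted p = 0.0501) or aSMA ablated array 2 or 3 (0.0745 and 0.0564), and that of Rps19bp1 without any 1 of the FSP1 ablated arrays 1, 2 and 4 or of the aSMA ablated arrays (0.0554 to 0.115). The Rps19bp1 call was also lost on the deposited and centred scales (0.59 and 0.57, adjusted p = 0.0507 and 0.0521), and without background correction both calls were lost (adjusted p = 0.054 for Rps19bp1 and 0.0714 for Rpl34). Of 38 assembly factors 5 were higher and 0 lower in FSP1 ablated livers (median 0.35). Of the 7 dividing-cell markers 6 were lower in FSP1 ablated livers (6.42 to 7.69) than in aSMA ablated livers (8.34 to 9.12), as were 2 of 10 mesenchymal markers (9.99 to 10.41 against 10.19 to 10.58) and 1 of 3 erythroid markers (7.05 to 10.82 against 10.56 to 11.44). The Alb probe read 6.41 to 6.66 in FSP1 ablated livers and 8.83 to 9.26 in aSMA ablated livers. The part of these in the calls was not tested.

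Many members were higher in each ablated group than in healthy liver. The comparisons share the healthy arrays with each other and with the CCl4 comparison. In FSP1 ablated livers 31 of the 60 were higher and 1 lower than in healthy livers (9.13% and 8.67% of all genes), with a median of 0.46. In aSMA ablated livers 17 were higher and 1 lower (11.4% and 11.3% of all genes), with a median of 0.21. Rpl12 (1.06 ± 0.25, SE, adjusted p = 0.00984), Rpl36a (1.02 ± 0.16, adjusted p = 0.000723) and Rpl13a (averages 10.32 against 9.32, adjusted p = 0.0047) had the largest differences in FSP1 ablated livers. In aSMA ablated livers they were those of Rps24 (0.86 ± 0.17, adjusted p = 0.00226), Rps12 (0.78 ± 0.13, adjusted p = 0.000868) and Rpl36a (0.70 ± 0.17, adjusted p = 0.00759). Rps6 was higher than healthy in FSP1 ablated livers (0.78 ± 0.22, adjusted p = 0.0255), and differed by -0.08 ± 0.24 (adjusted p = 0.837) in aSMA ablated livers under quantile normalization, and by 0.94 on the deposited scale.

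The lower gene in FSP1 ablated livers was Rps23rg1, not well above background there and at least 1.17-fold lower (adjusted p = 0.0287). It passed the filter only through the healthy arrays, so no conclusion is drawn from this call. That call was lost without healthy array 3 or 4 or any 1 FSP1 ablated array (adjusted p = 0.0507 to 0.0721). The lower gene in aSMA ablated livers was Rps19bp1, at 7.02, 6.93 and 6.80, against 7.40, 7.62, 7.65 and 7.86 in healthy livers (-0.71 ± 0.15, SE, adjusted p = 0.00354), which read 0.22 on the deposited scale. Rps4x, a small-subunit protein gene on the X chromosome, was higher in aSMA ablated livers (0.66 ± 0.18, adjusted p = 0.0176), a call lost without aSMA ablated array 2 (adjusted p = 0.107). Without that array 8 members passed in all. All healthy arrays carry Y-linked signal and all ablated arrays lack it. With that signal as a block, which rests on the CCl4 arrays that carry it and those that do not, 0 members passed in FSP1 ablated livers (median 0.30), and 2 higher and 2 lower in aSMA ablated livers (median 0.09). The share of all genes that passed with this block is not given.

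Markers of other cells moved with these comparisons too, again under quantile normalization alone. In FSP1 ablated livers 5 of 8 macrophage and 4 of 10 mesenchymal markers were higher than in healthy livers, 0 of 7 dividing-cell markers passed (6.42 to 7.69 against 6.34 to 6.76) and 3 of 3 erythroid markers were lower (7.05 to 10.82 against 12.09 to 12.45). In aSMA ablated livers 5 of 8 macrophage, 7 of 10 mesenchymal and 6 of 7 dividing-cell markers were higher (8.34 to 9.12 for the dividing-cell markers, against 6.34 to 6.76 in healthy livers), and 1 of 3 erythroid markers was lower. Macrophage markers lay at 9.25 to 10.38 in FSP1 ablated and 9.69 to 9.83 in aSMA ablated livers, against 7.99 to 8.49 in healthy livers. Their part in the members' differences was not tested.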

How the data were processed

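Mouse liver RNA (Trizol extraction, biotin-labelled cRNA from an Ambion kit, per the labels' protocols) was hybridised to 17 Illumina arrays in 4 groups. The values used are the deposited intensities of the series matrix, read by the authors with GenomeStudio, per the submitters' processing notes. No source used here gives its version or the normalization, and the healthy arrays lie on a lower scale. Another table, whose 34 columns match no label, was not used. Intensities were corrected with normexp (offset 50), quantile normalized and put on the log2 scale. Probes above the 95th percentile of background on at least 3 arrays were kept (17450 of 25697), 1 per gene symbol, with each probe that lacks a symbol counted as a gene. Each of 6 comparisons was a two-sided contrast of one limma fit to all arrays (limma 3.58.1, R 4.3.3), Benjamini-Hochberg adjusted over 12863 genes, threshold 0.05. The fit was tested on simulated data. Named members were the 5 largest rises and falls past the threshold (the 5 smallest p where fewer than 3 passed), with ribosomal proteins of known roles, and up to 4 genes per list. Rps27, Rpl12, Myc and the genes with second probes were added after their values were seen. The members and the 8 lists were chosen with earlier results of these data known. Deviations of same-numbered arrays from their group means correlated at -0.30 to 0.38 (6 of 21 pairs above 0.1). Differently numbered pairs were not computed beside them, so this check cannot decide whether the arrays are paired. Replicate numbers were not taken as pairs in the main fit, and a replicate block was among the alternatives. Another 15 settings were tried. The wider promoter window, the list medians under other scalings and the cytosolic less mitochondrial values were added after seeing the data. The number of arrays limits the precision.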

Additional observations from a re-analysis of the deposited data

Results flagged for a closer look

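Of 81 combinations of a named member and a group of 4 to 6 arrays, 5 held 1 array far from the others by Dixon's test, where chance flags about 1 in 20. FSP1 ablated array 3 was low for Rpl13a (9.66, the others 10.48 to 10.60), Rplp0 (7.18, the others 7.66 to 7.70) and Rplp1 (14.33, the others 14.69 to 14.72). CCl4 array 6 was low for Rpl23 (13.51, the others 13.86 to 13.99), and CCl4 array 4 for Rpl7l1 (8.77, the others 9.45 to 9.66). FSP1 ablated array 3 also had the lowest members' median of its group (0.15) and the fewest probes above background of all arrays (13784).

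By the contrast between them in the limma fit, the ablated groups differed for Rpl34 (0.52 higher in FSP1 ablated than in aSMA ablated livers, adjusted p = 0.0155) and for Rps19bp1 (0.62 higher, adjusted p = 0.0305). That is 3.33% of the members, near the 1.90% of all genes called higher, and is not read as a result about the members. The Alb probe also divides these groups (6.41 to 6.66 against 8.83 to 9.26), and an effect of the ablations cannot be told apart from that split. The Rpl34 call was lost without background correction (adjusted p = 0.0714) and in 3 of 17 fits that left out 1 array, that of Rps19bp1 in 6. The Rps19bp1 call was lost on the deposited and centred scales (adjusted p = 0.0507 and 0.0521).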

How the results depend on the processing

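The count of members called was 40 for CCl4 against healthy livers (36 higher, 4 lower), and 35 to 44 when any 1 array was left out. The count of rises moved with scaling, to 58 higher and 0 lower on the deposited scale and 52 and 1 with centred arrays, and Y-linked signal as a block left 25. On the deposited scale the median of all genes itself shifted by 0.58, and 66 of 73 mitochondrial ribosomal protein genes rose. The share of all genes called is not given for the alternatives here, so their counts are not read as particular to the members. For FSP1 ablated against CCl4 livers (4) the count was 2 with the replicate block, 2 with only the groups compared, 2 with the Y-linked block, and 2 to 4 with 1 array left out. For aSMA ablated against CCl4 livers (0) it was 26 with array weights, all lower, 4 with the Y-linked block, 17 with CCl4 arrays 1 to 3 only, and 0 to 3 with 1 array left out. For FSP1 ablated against aSMA ablated livers (2) it was 0 without background correction, 4 on the deposited scale, 4 with centred arrays, 22 with array weights (21 higher, 1 lower), 5 with the Y-linked block, 8 with the CCl4 arrays in parts, and 0 to 9 with 1 array left out. For FSP1 ablated against healthy livers (32) it was 57 on the deposited scale, 56 with centred arrays and 0 with the Y-linked block. For aSMA ablated against healthy livers (18) it was 11 without background correction, 54 on the deposited scale, 52 with centred arrays, 4 with the Y-linked block, and 8 to 22 with 1 array left out. The replicate block gave 44, 0, 3, 32 and 16 for the comparisons other than FSP1 ablated against CCl4. Of the members' differences that passed under quantile normalization, those that changed sign were the differences from healthy livers of Rps19bp1 (0.38 and 0.10 in CCl4 and 0.22 in aSMA ablated livers), Rpl22 (0.56 and 0.28) and Rpl7l1 (0.67 and 0.39), on the deposited and centred scales, with aSMA ablated livers on the deposited scale alone. Over all named differences and alternatives, 953 kept direction and side of the threshold, 83 no longer passed, 40 newly passed and 7 changed sign. Apart from scaling, where the healthy arrays' lower intensities set the shift, the cause was not tested. Dim probes limit what can be said of Rps23rg1, Rpl3l, Rpsa and the 6 members not tested.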
